A study of Homo sapiens with 117 samples.

Results

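The CTCF sites of 9 imprinted genes, *DLK1*, *MEG3*, *GNAS*, *KCNQ1OT1*, *PEG3*, *MEST*, *PEG10*, *PLAGL1* and *GRB10*, were described across 24 CTCF ChIP-seq peak lists. The genes were chosen by name, and every peak whose summit lay inside one of them or within 20 kb of it (GENCODE release 44, GRCh38) was taken, which gave 1515 of the 6621481 peaks in the lists and 9 of 62062 annotated genes. The lists come from DIvA cells, a U2OS osteosarcoma line with the restriction enzyme AsiSI fused to an estrogen receptor domain, in which 4-hydroxytamoxifen (4-OHT, 300 nM for 4 h) lets the enzyme cut the genome (+DSB), and cells without 4-OHT form the −DSB groups. IDH1WT −DSB is represented by replicates 2 to 4, IDH1WT +DSB, IDH1R132H −DSB and IDH1R132H +DSB by 4 lists each, TET1 CD −DSB, TET1 CD +DSB and TET1 dCD +DSB by 2 lists each, and TET1 dCD −DSB by 3. All groups share the DIvA background, the IDH1 alleles were brought in by lentivirus, and TET1 CD (the catalytic domain of the demethylase TET1) and TET1 dCD (its catalytically dead form) were overexpressed in IDH1R132H cells. The mutant IDH1 enzyme makes D-2-hydroxyglutarate, which inhibits TET dioxygenases, and the groups ask how CTCF occupancy differs with the mutation, with DNA breaks and with TET1 activity.

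An imprinted gene is expressed from only one parental allele, and CpG methylation of a control region on one of the alleles keeps that choice. CTCF is a zinc finger protein that binds a long DNA motif, halts cohesin at the base of chromatin loops and can insulate enhancers from promoters. Methylation of CpGs within its motif can prevent binding, which is the textbook basis of allele-specific insulation in imprinted domains. The peak lists do not separate the parental alleles, so every value is a sum over both.

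The run names written inside the lists went against the labels in 9 of the 24 lists. Lists labelled IDH1WT −DSB carry run names of R132H cells without 4-OHT, lists labelled IDH1R132H −DSB carry those of wild-type cells without 4-OHT, and the names inside replicates 1 and 2 of TET1 dCD −DSB are those of TET1 CD cells with 4-OHT. Groups follow the labels here, and results that rest on these lists are also given with groups by run names. Where lists of a group differed by no more than counting noise they were averaged and counted as 1 sample. The exception was TET1 CD −DSB, whose lists differed by no more than this noise (variance ratio 0.963) but stayed separate. This left 16 samples. These were 3 in IDH1R132H +DSB, 1 in TET1 CD +DSB and 2 in each other group. Ranks and their overlap are described below by list, so lists joined into 1 sample appear separately there. The study calls the ChIP-seq replicates biological without stating which lists came from separate cultures, so p-values measure the spread between these samples, part of which may be technical. The lists held 111558 to 503609 peaks. The background level was 2.36 to 5.73 reads in the 8 lists with a wild-type run name and 1.04 to 1.65 reads in the 7 with an R132H run name, and its part in the results was not tested.

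Summits within 100 bp of the next one were joined into sites, and a site was called recurrent when at least 12 lists held it. The windows of the 9 genes held 60 sites found in at least 4 lists, of which 25 were recurrent and 11 were found in all 24. A recurrent site was present at 7 of the 9 genes and a site found in every list at 6, whereas 73.3% and 54.4% of all annotated genes had one in their window. The recurrent sites numbered 8 at *GRB10*, 6 at *GNAS*, 4 at *PLAGL1*, 2 each at *MEG3*, *PEG3* and *MEST*, and 1 at *PEG10*, with none at *DLK1* and *KCNQ1OT1*. Sites are numbered in the direction in which their gene is transcribed.

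**Figure D1:**
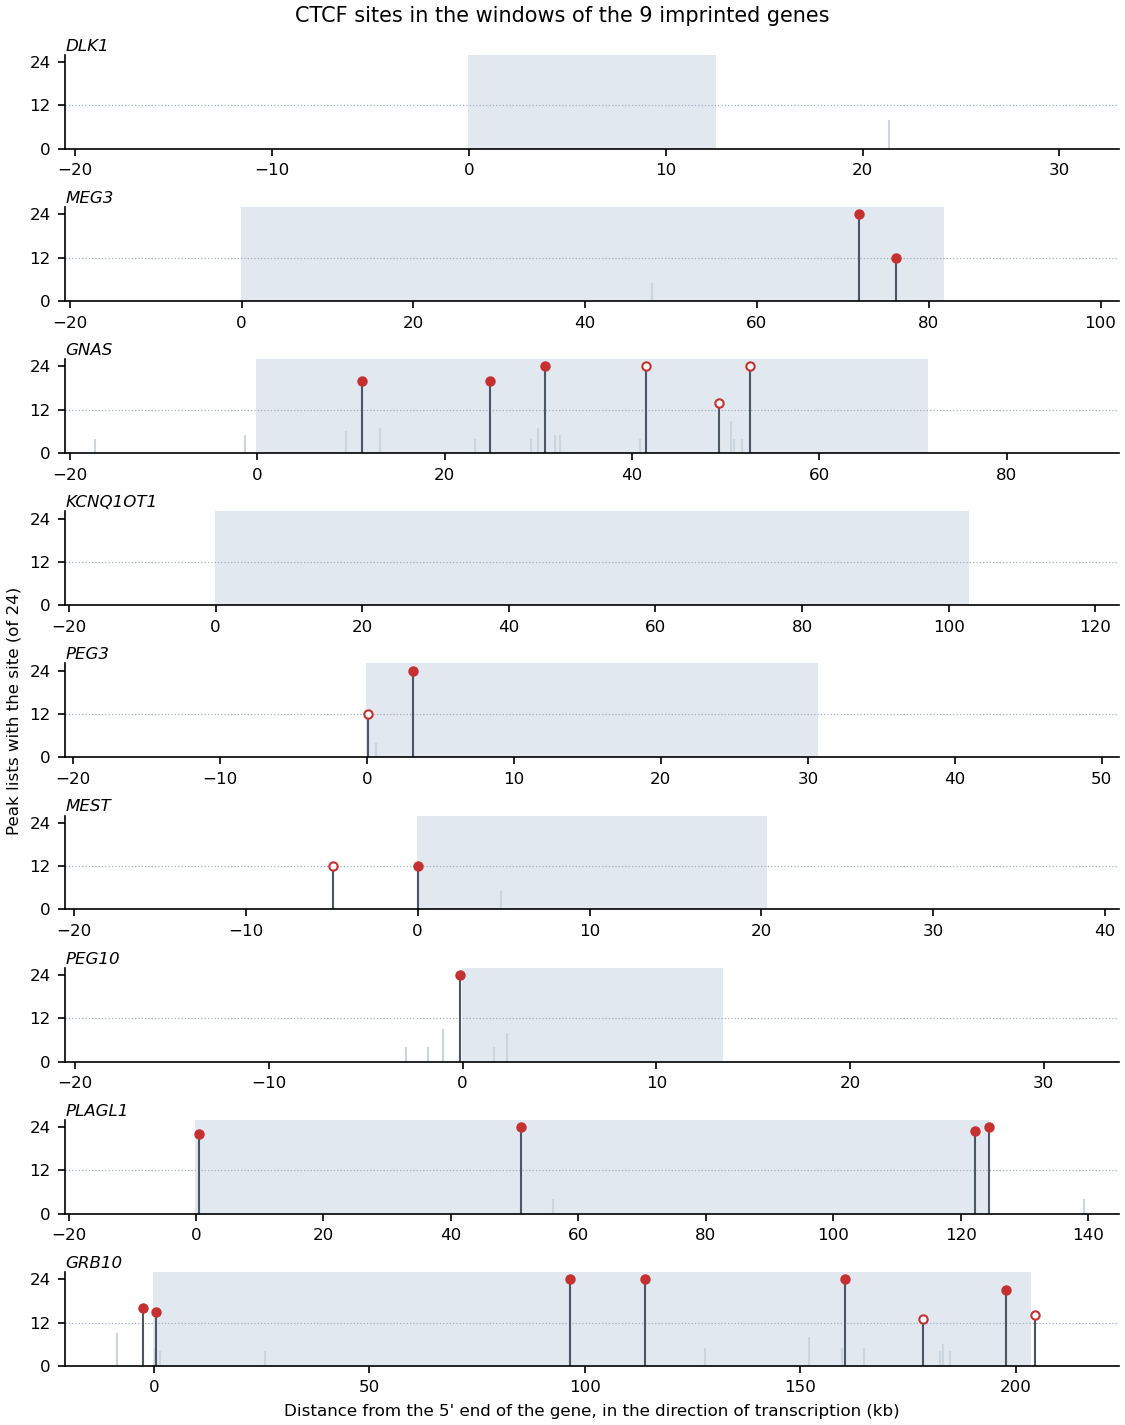
Each panel shows the window of 1 gene, with the distance from the gene start in kb on the x axis and the number of lists with the site on the y axis; the shaded area is the gene, the dotted line marks 12 lists, and filled circles mark sites with a CTCF motif match. *DLK1* and *KCNQ1OT1* have no recurrent site, *PEG10* has 1 at its start, and the 8 of *GRB10* lie at both ends of the gene and within it.

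The CTCF motif was represented by a matrix of 19 bases learned from strong CTCF sites outside the windows, with a threshold that 1% of control windows passed. A match within 50 bp of the summit was found at 18 of the 25 recurrent member sites, against 37.3% of all 99694 recurrent sites, and at 9 of the 11 sites found in every list, against 78.1% of the 30461 such sites of the genome. The sequences of these 9 sites are shown because the comparisons of rank rest on them. They are from GRCh38 and read 5′ to 3′ on the strand of the match, with the matched bases in capitals, and a shorter stretch is given for the *PEG10* site, which lies in an untranslated exon of *SGCE*.
MEG3 site 1, chr14:100851293-100851351, + strand: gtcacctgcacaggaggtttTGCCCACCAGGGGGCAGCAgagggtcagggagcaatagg
GNAS site 3, chr20:58870434-58870492, + strand: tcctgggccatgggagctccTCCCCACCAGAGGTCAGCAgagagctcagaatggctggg
PEG3 site 2, chr19:56837544-56837602, − strand: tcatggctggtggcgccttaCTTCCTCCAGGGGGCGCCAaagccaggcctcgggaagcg
PEG10 site 1, chr7:94656204-94656232, − strand: gtggcCCGCCGCTAGAGGGAGTACgggat
PLAGL1 site 2, chr6:144013573-144013631, − strand: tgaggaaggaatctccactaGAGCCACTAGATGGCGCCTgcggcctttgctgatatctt
PLAGL1 site 4, chr6:143940159-143940217, + strand: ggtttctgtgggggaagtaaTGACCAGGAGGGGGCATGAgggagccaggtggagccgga
GRB10 site 3, chr7:50696865-50696923, + strand: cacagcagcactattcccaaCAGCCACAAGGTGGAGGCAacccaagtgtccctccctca
GRB10 site 4, chr7:50679422-50679480, − strand: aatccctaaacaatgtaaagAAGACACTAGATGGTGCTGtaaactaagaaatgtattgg
GRB10 site 5, chr7:50633068-50633126, − strand: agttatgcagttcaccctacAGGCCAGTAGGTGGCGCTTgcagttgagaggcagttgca

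Of the 18 matches, 9 contained a CpG, and in 8 of these a CpG began at position 15 of the matrix, counted from its 5′ end. PEG10 site 1 was the exception, with CpGs at positions 2 and 5. Over the 37148 recurrent sites of the genome with a match, 25.8% had a CpG at position 15 and 36.8% had one anywhere in the match. Among the sequences shown, those of MEG3 site 1, GNAS site 3, PLAGL1 site 4, GRB10 site 3 and GRB10 site 4 have no CpG in the match. These counts describe the reference sequence, and methylation was not measured in these lists.

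Within 200 bp around the summit, the recurrent member sites had a median of 5 CpGs and 56.7% GC, against 3 CpGs and 42.8% GC over all recurrent sites. At least 10 CpGs were present at 9 of the 25, against 12.8% of all recurrent sites. Of the 10 member sites within 500 bp of a transcript start of their gene, 8 had at least 10 CpGs. GNAS site 6, PEG3 site 2 and PEG10 site 1 were the 3 CpG-rich sites found in every list. The median was 3 CpGs for the 11 sites in every list and 7 for the other 14.

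*DLK1* and *MEG3* lie in the imprinted domain of chromosome 14, where *DLK1*, a transmembrane protein related to Notch ligands, is expressed from the paternal allele and the long non-coding RNA *MEG3* from the maternal one. *DLK1* (chr14:100725705-100738224, + strand) had 0 to 2 peaks per list and a peak in 13 lists. Its window held a single site found in at least 4 lists, an intergenic one 21.3 kb from the gene start, with a peak in 1 of 3 lists of IDH1WT −DSB, 4 of 4 of IDH1WT +DSB, 2 of 4 of IDH1R132H −DSB, 0 of 4 of IDH1R132H +DSB and 1 of 2 of TET1 CD −DSB, and in no other TET1 list (p = 0.206 for IDH1R132H against IDH1WT, Fisher's exact test over joined samples). *MEG3* (chr14:100779410-100861031, + strand) had 1 to 5 peaks per list. MEG3 site 1 lies in a *MEG3* exon, 71.9 kb from the gene start and at −4107 bp (upstream) from the nearest *MEG3* transcript start, with 5 CpGs. MEG3 site 2, in an exon 160 bp after a transcript start, was found in 12 lists and had a median rank of 105940.

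Strength is given as the rank of a peak within its list by its fold over background (1 is the strongest, and tied peaks share a mean rank), because the folds are not normalized between lists. At MEG3 site 1 the ranks were 14623, 14028.5 and 12284 in IDH1WT −DSB, and 7026.5, 6918, 7826 and 7444 in IDH1WT +DSB. They were 9483, 10899, 9213 and 10373 in IDH1R132H −DSB, and 13813.5, 12537, 13608 and 10702.5 in IDH1R132H +DSB. IDH1WT +DSB ranked the site nearest the top, without overlap with any other group, and IDH1R132H −DSB overlapped with IDH1R132H +DSB but not with IDH1WT −DSB. By run names the −DSB groups change places. How many of all sites separate the groups in this way was not counted. The ranks were 13350.5 and 14035.5 in TET1 CD −DSB, 19345 and 18056 in TET1 CD +DSB, 15450, 9296 and 16812.5 in TET1 dCD −DSB, and 14588.5 and 12051 in TET1 dCD +DSB. By labels TET1 CD +DSB, whose lists were joined into 1 sample, ranked it lowest of the 8 groups. By run names replicates 1 and 2 of TET1 dCD −DSB (15450 and 9296) also belong to TET1 CD +DSB. Chromosome 14 held 7.15 to 8.37% of the peaks of lists with a wild-type run name and 4.72 to 5.38% of those with an R132H run name, and the part of this in the values at *DLK1* and *MEG3* was not tested.

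*GNAS* (chr20:58839718-58911192, + strand) encodes the stimulatory G protein alpha subunit and uses several promoters that differ in parental expression, with the antisense RNA *GNAS-AS1* transcribed across the upstream ones. Its window held 7 to 28 peaks per list, and 30.2% of these fell on its 6 recurrent sites. GNAS site 1 lies in an exon of *GNAS-AS1*, 3 bp from a transcript start of that RNA, with 16 CpGs and 2 CpGs in its match, and was found in 20 lists. GNAS sites 2, 3 and 4 lie in introns and have 1, 1 and 3 CpGs. GNAS site 5, at −77 bp from a *GNAS* transcript start, and GNAS site 6, 8 bp after another, lie in untranslated exons with 29 and 13 CpGs and no motif match, and were found in 14 and 24 lists. GNAS site 3, the best ranked of the 6, thus lay in an intron with few CpGs, and the sites at *GNAS* transcript starts had no match to the matrix.

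At GNAS site 3, 30.7 kb from the gene start, the ranks were 10247.5, 9013.5 and 10809 in IDH1WT −DSB, and 4099.5, 4965.5, 3559 and 4225.5 in IDH1WT +DSB. They were 4011.5, 4916.5, 7036 and 5223 in IDH1R132H −DSB, and 9049, 8719, 8738 and 10027 in IDH1R132H +DSB. IDH1WT +DSB and IDH1R132H −DSB overlapped with each other and stood nearer the top than IDH1WT −DSB and IDH1R132H +DSB without overlap. The former groups carry wild-type run names and the latter R132H run names. The share of all sites with this split was not counted. The ranks were 7045 and 8246.5 in TET1 CD −DSB, 5622 and 6533 in TET1 CD +DSB, 8146.5, 7771.5 and 7190 in TET1 dCD −DSB, and 8713.5 and 10959.5 in TET1 dCD +DSB. By labels, TET1 CD +DSB stood nearer the top than both TET1 dCD groups. By run names it also holds replicates 1 and 2 of TET1 dCD −DSB, and it then overlapped with the remaining list of that group (7190). GNAS site 4 ranged only from 18765 to 30213 over the 24 lists, and the range of each of the other groups overlapped with that of IDH1R132H +DSB. Chromosome 20 held 2.77 to 2.93% of the peaks of lists with a wild-type run name and 2.24 to 2.39% of those with an R132H run name.

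*KCNQ1OT1* (chr11:2597308-2700003, − strand) is the paternally expressed antisense RNA that silences genes of its domain in cis. Its window held no site found in at least 4 lists and a median of 0 peaks per list. The lists had 2, 0 and 3 peaks in IDH1WT −DSB, 1, 1, 1 and 2 in IDH1R132H +DSB and 4 and 4 in TET1 dCD +DSB, and every other list had 0. Of these 18 peaks, 1 peak in IDH1R132H +DSB replicate 4 was among the 100000 strongest of its list. By run names, the lists with peaks are R132H and TET1 dCD +DSB lists, and the latter had background levels of 1.23 and 1.16 reads.

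*PEG3* (chr19:56810077-56840728, − strand), a paternally expressed zinc finger gene, had 1 to 9 peaks per list. PEG3 site 1 lies in an untranslated exon 32 bp after a transcript start, with 22 CpGs and no motif match. It was found in 0 of 3 lists of IDH1WT −DSB, 4 of 4 of IDH1WT +DSB, 3 of 4 of IDH1R132H −DSB and 1 of 4 of IDH1R132H +DSB. By run names the −DSB groups change places. PEG3 site 2 lies in an intron of *PEG3* and *ZIM2*, 3.15 kb from the gene start and 235 bp after a transcript start, with 10 CpGs and a CpG in its match. Its median rank of 4742 was better than that of 95.5% of all recurrent sites.

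At PEG3 site 2 the ranks were 5498, 4838 and 4300 in IDH1WT −DSB, and 2109.5, 4714, 1802.5 and 1282 in IDH1WT +DSB. They were 2265, 2959.5, 3360 and 4553 in IDH1R132H −DSB, and 5761.5, 6161.5, 4769.5 and 6449.5 in IDH1R132H +DSB. The +DSB groups did not overlap, although IDH1WT +DSB replicate 2 lay close to the nearest IDH1R132H list. How many of all sites show this separation was not counted. The 9 TET1 lists ranked the site between 3177 and 8256.5. Chromosome 19 held 2.6 to 3.13% of the peaks of lists with a wild-type run name and 2.26 to 2.55% of those with an R132H run name.

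*MEST* (chr7:130486171-130506465, + strand), a paternally expressed gene of the alpha/beta hydrolase fold family, had 0 to 9 peaks per list and no site in all 24. MEST site 1, intergenic at −4910 bp from the gene start, and MEST site 2, 11 bp after a transcript start and also in an exon of *MESTIT1*, were each found in 12 lists. Their median ranks of 106184 and 135278 were the lowest of the recurrent member sites, and 14.1% and 5.84% of all recurrent sites ranked lower still. MEST site 2 has 18 CpGs and a CpG in its match. It had a peak in 2 of 3 lists of IDH1WT −DSB, 3 of 4 of IDH1WT +DSB, 3 of 4 of IDH1R132H −DSB and 1 of 4 of IDH1R132H +DSB, and in 1 of 2 of TET1 CD −DSB, 0 of 2 of TET1 CD +DSB, 0 of 3 of TET1 dCD −DSB and 2 of 2 of TET1 dCD +DSB.

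*PEG10* (chr7:94656325-94669695, + strand), a paternally expressed gene derived from a retrotransposon, shares a CpG-rich promoter region with *SGCE*, the epsilon-sarcoglycan gene, which is transcribed in the opposite direction. PEG10 site 1, the only recurrent site of the window, lies at −116 bp from the *PEG10* start and 1 bp from an *SGCE* transcript start, with 14 CpGs, and was found in every list. Its ranks were 15100.5, 14173.5 and 10143.5 in IDH1WT −DSB, and 5272, 4317, 5164 and 7233 in IDH1WT +DSB. They were 5196, 3538, 6069 and 7957 in IDH1R132H −DSB, and 12574.5, 15152, 12988.5 and 13787.5 in IDH1R132H +DSB. IDH1WT +DSB and IDH1R132H −DSB overlapped with each other and with neither of the other 2 groups. Both carry wild-type run names, and the other 2 groups carry R132H run names. The share of all sites with this split was not counted. The ranks were 9771.5 and 11565.5 in TET1 CD −DSB, 13951 and 12569 in TET1 CD +DSB, 12601, 9780 and 12887.5 in TET1 dCD −DSB, and 12855.5 and 13267.5 in TET1 dCD +DSB. All 9 TET1 lists ranked the site below the 8 lists of IDH1WT +DSB and IDH1R132H −DSB.

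*PLAGL1* (chr6:143940300-144064599, − strand), a paternally expressed zinc finger gene, had 4 to 12 peaks per list, and 56.7% of these fell on its 4 recurrent sites, all with a motif match. PLAGL1 site 1, in an intron 388 bp after a transcript start, has 26 CpGs, 3 of them in its match, and was found in 22 lists. PLAGL1 site 2, in an intron 51.0 kb from the gene start, was the best ranked, from 5465.5 to 11979.5. PLAGL1 site 3 lies in a coding exon and was found in 23 lists.

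PLAGL1 site 4 lies just beyond the 3′ end of the gene. Its ranks were 53409.5, 28029.5 and 58827 in IDH1WT −DSB, and 16936, 17359, 17475 and 18710.5 in IDH1WT +DSB. They were 14960.5, 12936, 18034.5 and 18343.5 in IDH1R132H −DSB, and 86267.5, 27036, 45280.5 and 31540.5 in IDH1R132H +DSB. The 4 groups fell into the same pairs as at PEG10 site 1, without overlap between the pairs. These pairs match the genotypes of the run names, and the share of all sites with this split was not counted. In TET1 dCD +DSB the ranks were 290885.5 and 33251, and the other TET1 lists lay between 18730 and 31818. Chromosome 6 held 2.81 to 3.4% of the peaks of lists with a wild-type run name and 2.62 to 2.84% of those with an R132H run name.

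*GRB10* (chr7:50590063-50793462, − strand) encodes an adaptor protein that restrains insulin receptor signalling and is imprinted in a tissue-specific way. Its window, the longest of the 9 at 243.4 kb, held 8 to 62 peaks per list, and 25.2% of these fell on its 8 recurrent sites. GRB10 site 2, in an untranslated exon 61 bp after a transcript start, has 27 CpGs and was found in 15 lists. GRB10 sites 3, 4 and 5 lie in introns, 96.6, 114.0 and 160.4 kb from the gene start, with 0, 2 and 3 CpGs, and were found in every list.

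GRB10 site 5 had the best median rank of the member sites, 2765.5, better than that of 97.5% of all recurrent sites. It ranked at 3978.5, 2499.5 and 3688 in IDH1WT −DSB, 3779.5, 1868.5, 3790 and 3776 in IDH1WT +DSB, 1582.5, 1740, 2713.5 and 2739 in IDH1R132H −DSB, and 2697, 1402.5, 3772 and 2280.5 in IDH1R132H +DSB. These 4 groups overlapped with one another. The ranks were 2453 and 2792 in TET1 CD −DSB, 7493.5 and 6753.5 in TET1 CD +DSB, 1905, 3124.5 and 6844 in TET1 dCD −DSB, and 3324 and 2715.5 in TET1 dCD +DSB. The lists labelled TET1 CD +DSB and replicate 3 of TET1 dCD −DSB ranked it lower than all other lists. By run names TET1 CD +DSB also holds the lists at 1905 and 3124.5.

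At GRB10 site 3 the ranks were 26824.5, 33444 and 30721 in IDH1WT −DSB, 16826.5, 12846, 18949 and 16841 in IDH1WT +DSB, 16543, 15362, 18997.5 and 17579 in IDH1R132H −DSB, and 34265.5, 34091, 27408 and 23771 in IDH1R132H +DSB. IDH1WT +DSB and IDH1R132H −DSB, both with wild-type run names, again overlapped and stood nearer the top than the other 2 groups. The ranks were 17048 and 18180.5 in TET1 CD −DSB, 23668 and 23188 in TET1 CD +DSB, 18353.5, 20179 and 23629 in TET1 dCD −DSB, and 47130 and 41373 in TET1 dCD +DSB. TET1 dCD +DSB ranked it lowest of all groups. At GRB10 site 4 the ranks were 40291, 42303 and 28992 in IDH1WT −DSB, 27420, 27425, 25759 and 26998 in IDH1WT +DSB, 28294.5, 37827, 29854 and 33928.5 in IDH1R132H −DSB, and 128920.5, 54260.5, 41700 and 37464.5 in IDH1R132H +DSB. The +DSB groups did not overlap there, and the −DSB groups did. For GRB10 sites 3 and 4 as well, the share of all sites with such separations was not counted. Chromosome 7, which also holds *MEST* and *PEG10*, held 8 to 9.09% of the peaks of lists with a wild-type run name and 6.84 to 7.39% of those with an R132H run name.

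**Figure D2:**
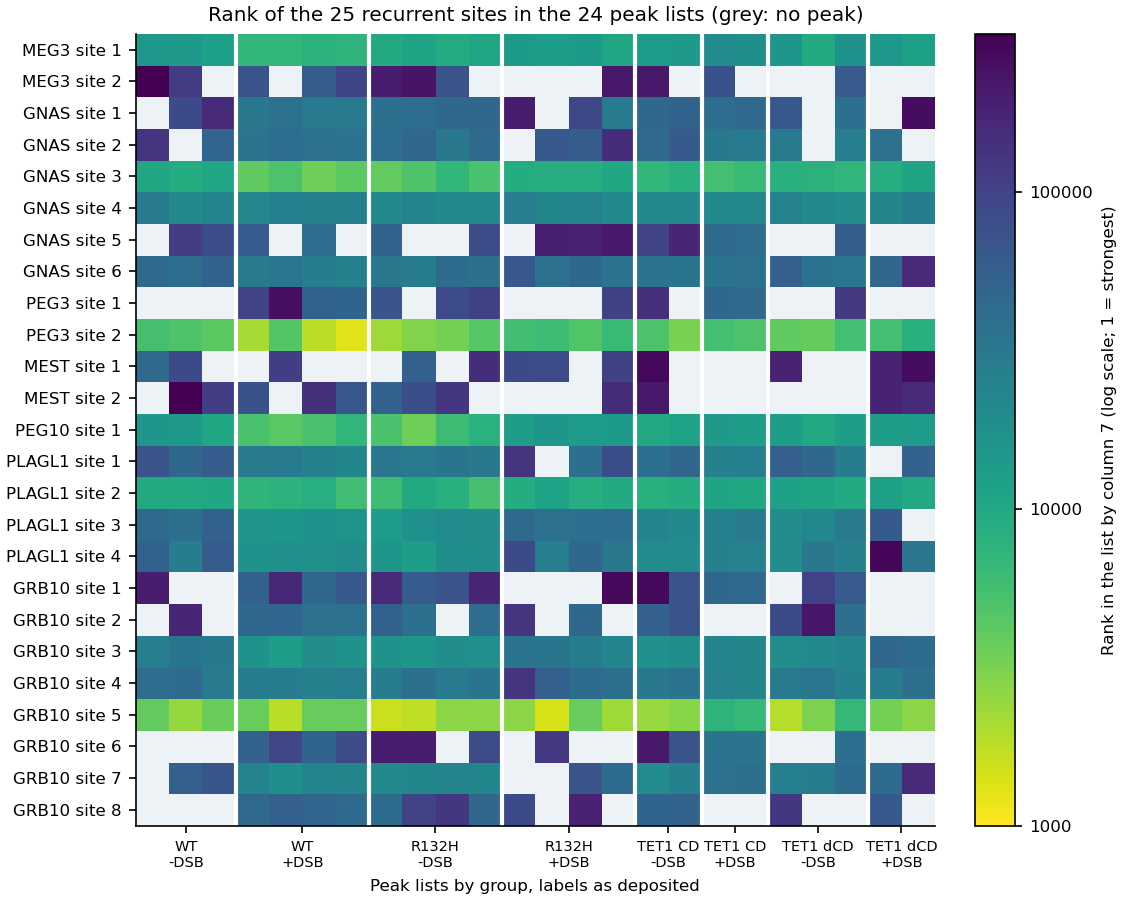
Rows are the 25 recurrent sites and columns the 24 lists by group; colour gives the rank within the list on a log scale (yellow is strongest) and grey means that the list has no peak. GRB10 site 5 and PEG3 site 2 are the strongest rows, with median ranks of 2765.5 and 4742, and PEG3 site 1 and GRB10 sites 6 and 8 have no peak in any IDH1WT −DSB list. Groups follow the labels, and the IDH1WT −DSB lists carry R132H run names.

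**Figure D3:**
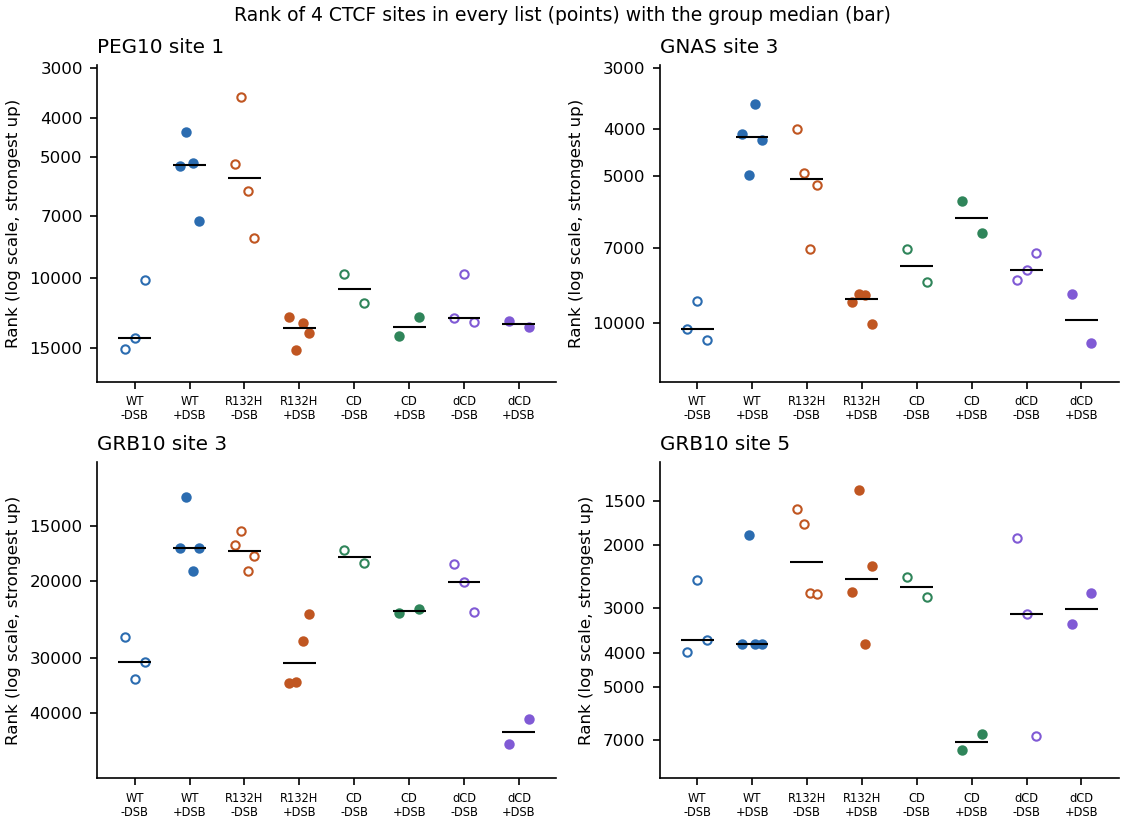
The y axis is the rank within the list on a log scale with the strongest at the top; points are lists, open without and filled with DSB, and bars are group medians. At PEG10 site 1 and GNAS site 3 the lists of IDH1WT +DSB and IDH1R132H −DSB stand above those of IDH1WT −DSB and IDH1R132H +DSB, and at GRB10 site 5 these groups overlap. IDH1WT +DSB and IDH1R132H −DSB carry wild-type run names, and IDH1WT −DSB and IDH1R132H +DSB carry R132H run names. The share of all sites with this split was not counted.

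Ranks were tested with limma on −log2 rank over the 30461 sites found in every list, with Benjamini-Hochberg adjustment over all of them. A positive difference means that the group named first ranked the site nearer the top, and a difference of 1 stands for a factor of 2 in rank. For IDH1R132H against IDH1WT with DSB, the labels and the run names give the same groups. There, 6 of the 11 member sites were called, all 6 lower in IDH1R132H, against 35.8% of all sites called in either direction (34.1% when the other groups followed run names). By labels, 5210 of the 30461 sites were called lower in IDH1R132H and 5695 higher. The median difference was −1.03 for the 11 member sites and 0.01 over all sites.

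PEG10 site 1 had the smallest p, with a difference of −1.45 ± 0.19 (SE, limma adjusted p = 4.56e-05). The differences were −1.05 ± 0.20 at GRB10 site 3 (adjusted p = 0.000968), −0.84 ± 0.17 at MEG3 site 1 (adjusted p = 0.00165) and −1.03 ± 0.22 at GNAS site 3 (adjusted p = 0.00255). These 4 sites were called whichever sample was left out. The differences were −1.27 ± 0.39 at GRB10 site 4 (adjusted p = 0.0211) and −1.04 ± 0.38 at PEG3 site 2 (adjusted p = 0.0436). PEG3 site 2 was no longer called without the joined IDH1WT +DSB replicates 1, 3 and 4 (−0.30, adjusted p = 0.609), nor without any single IDH1R132H +DSB sample. GRB10 site 4 was not called without IDH1R132H +DSB replicate 1 (−0.78, adjusted p = 0.0637) or without either IDH1WT +DSB sample (adjusted p = 0.109 and 0.0706). GRB10 site 5 (0.25 ± 0.45) and GNAS site 4 (0.08 ± 0.19) had positive differences and were not called.

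The sites around each gene give the local background. Sites within 2 Mb but outside the gene windows had a median difference of 0.04 around PEG10 site 1 (33 sites), −0.38 around the *GNAS* sites (46 sites), −0.28 around the *GRB10* sites (34 sites), −0.31 around PEG3 site 2 (57 sites) and −0.32 around MEG3 site 1 (47 sites). The called sites at *GNAS*, *GRB10*, *PEG3* and *MEG3* lay further below 0 than their neighbours' median, but calling selects sites with large differences. Of the tested sites not called in these windows, GNAS site 6 differed by −0.61, GNAS site 4 by 0.08 and GRB10 site 5 by 0.25. The neighbours of PEG10 site 1 had a median near 0. Over the genome, sites with 10 or more CpGs (4646 sites) had a median difference of −0.58, those with 5 to 9 (5520 sites) one of −0.01, and those with fewer than 5 (20295 sites) one of 0.13. Of the 6 called member sites, PEG10 site 1 and PEG3 site 2 belong to the first class, MEG3 site 1 to the second, and GNAS site 3 and GRB10 sites 3 and 4 to the third.

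Without DSB, 50.1% of all sites had a positive difference of IDH1R132H against IDH1WT by labels. All 11 member differences were positive, with a median of 0.80 against 0.00 over all sites. Of these 11, 3 were called, against 17.8% of all sites in either direction (3386 sites higher). These were PEG10 site 1 (1.33 ± 0.21, limma adjusted p = 0.000606), GNAS site 3 (1.08 ± 0.24, adjusted p = 0.00671) and GRB10 site 3 (0.80 ± 0.22, adjusted p = 0.0191). By run names the 2 groups change places, and the same 3 sites were called with the opposite sign, against 16.9% of all sites, with −1.33 at PEG10 site 1 (adjusted p = 0.000816). The direction of this comparison therefore depends on whether groups follow the labels or the run names. GRB10 site 3 was not called when any 1 of the 4 samples was left out (adjusted p = 0.0592 to 0.169), and GNAS site 3 was not called without IDH1WT −DSB replicate 2 (1.05, adjusted p = 0.0687) or IDH1R132H −DSB replicate 1 (0.83, adjusted p = 0.134).

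For +DSB against −DSB in IDH1WT, 50% of all sites had a positive difference by labels. All 11 member differences were positive and 4 were called, against 33.1% of all sites in either direction (5022 sites higher). These were PEG10 site 1 (1.42 ± 0.21, limma adjusted p = 0.000153), MEG3 site 1 (0.95 ± 0.18, adjusted p = 0.00142), GNAS site 3 (1.18 ± 0.24, adjusted p = 0.00209) and GRB10 site 3 (0.97 ± 0.22, adjusted p = 0.00381). In IDH1R132H, 50.3% of all sites had a positive difference by labels. All 11 member differences were negative and 3 were called, against 18.6% of all sites in either direction (3347 sites lower). These were PEG10 site 1 (−1.35 ± 0.19, adjusted p = 0.000208), GRB10 site 3 (−0.88 ± 0.20, adjusted p = 0.00599) and GNAS site 3 (−0.92 ± 0.22, adjusted p = 0.00879), of which the last 2 were not called without IDH1R132H −DSB replicate 1 (adjusted p = 0.11 and 0.201). These comparisons share groups with each other and with those of genotype, so their calls are not independent.

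By run names, limma called 0% of all sites for DSB in IDH1WT (1331 sites at an unadjusted p under 0.05) and 0% for DSB in IDH1R132H (829 sites). PEG10 site 1 then differed by 0.10 and −0.02. The difference between both effects of DSB, tested as an interaction, was called by labels at 8 of the 11 member sites, against 49.9% of all sites, and by run names at none of them and at 0% of all sites (883 sites at an unadjusted p under 0.05).

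Between TET1 CD and TET1 dCD, averaged over both treatments, limma called none of the 11 member sites, with 0.0164% of all sites called by labels (5 sites, and 6469 at an unadjusted p under 0.05) and 0.0263% by run names. The smallest p among the members was at GRB10 site 3, which TET1 CD ranked nearer the top by 0.60 ± 0.17 (adjusted p = 0.119). PLAGL1 site 4 followed with 1.17 ± 0.60 (adjusted p = 0.274). Without TET1 dCD +DSB replicate 2 it differed by 1.96 and was called, when 1.75% of all sites were called. TET1 dCD +DSB was then replicate 1 alone, which ranked the site at 290885.5 with a fold of only 3.14. That call therefore depends on 1 weak peak in 1 list and is no evidence of a TET1 effect at the site. With every list as its own sample 1 of the 11 sites was called (6274 of all sites), and with a replicate block as well 3 were (8542 of all sites). The median difference was 0.15 for the 11 sites and 0.09 over all sites.

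**Figure D4:**
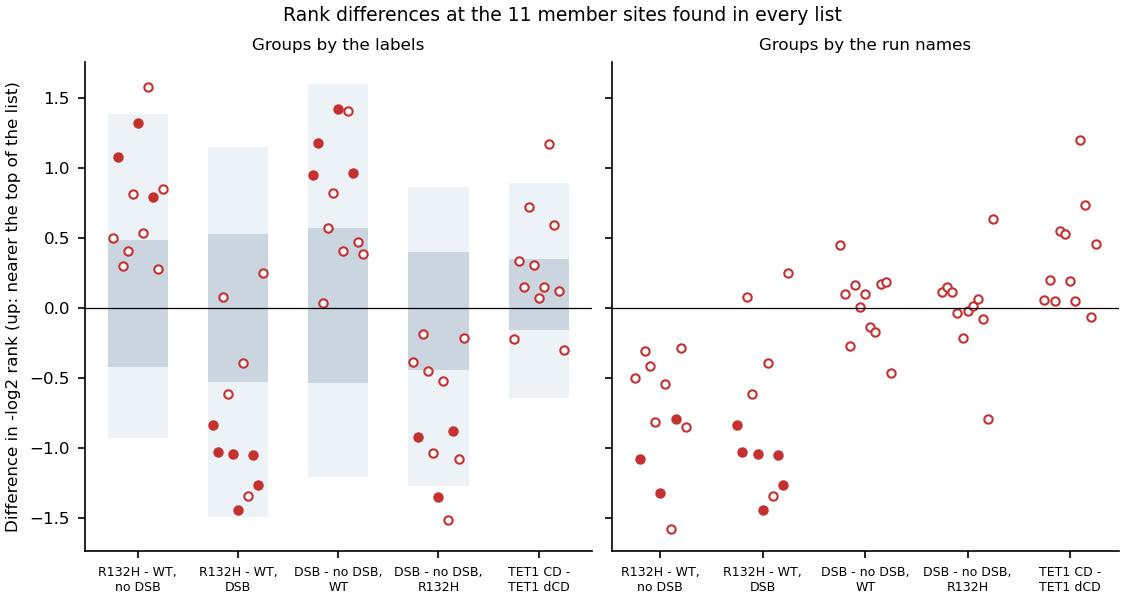
The y axis is the difference in −log2 rank and the x axis the 5 comparisons, with groups by labels on the left and by run names on the right; circles are the 11 member sites, filled where the adjusted p is under 0.05, and the dark and pale bars on the left span the middle 50% and 90% of all 30461 sites. With DSB, 9 of the 11 sites lie below 0 for IDH1R132H against IDH1WT in both panels, and without DSB all 11 change sign between the panels.

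Presence of a site was tested with Fisher's exact test (2-sided) on the number of samples with a peak, in 5 IDH1R132H and 4 IDH1WT samples over both treatments. Of the 355140 sites found in at least 4 lists, 0% were called after adjustment and 1.71% had an unadjusted p under 0.05, the smallest p that the design allows being 0.00794. Among the 60 member sites, 1 had an unadjusted p under 0.05, a site in an untranslated *GNAS* exon (summit at 58891451 of chromosome 20) found in 3 of 4 IDH1WT and 0 of 5 IDH1R132H samples (p = 0.0476, Fisher's exact test). By run names, 7 of the 60 member sites had an unadjusted p under 0.05, all with fewer IDH1R132H samples, against 8.55% of all sites in either direction and 3.42% with fewer IDH1R132H samples. None of the member sites was called (smallest adjusted p = 0.557), nor was any site of the genome (0%). PEG3 site 1 and GRB10 site 6 were among the 7, each in 4 of 4 IDH1WT and 1 of 5 IDH1R132H samples. All of the 7 but PEG3 site 1 lay on chromosome 7, in the *GRB10* window except for 1 at *MEST*. Chromosome 7 held 8 to 9.09% of the peaks of lists with a wild-type run name and 6.84 to 7.39% of those with an R132H run name. The part of this was not tested.

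The number of peaks per window was tested with limma on log2(peaks + 1) over 61665 genes. For IDH1R132H against IDH1WT, averaged over treatments, 0% of genes were called (1808 at an unadjusted p under 0.05), and the 9 members had a median difference of −0.13, against −0.12 over all genes. By run names 10.4% of all genes were called, and *KCNQ1OT1* was the one member among them, with more peaks in IDH1R132H (1.19 ± 0.21, limma adjusted p = 0.00452), where the labels gave −0.10 ± 0.21. For TET1 CD against TET1 dCD, 0% of genes were called (17482 at an unadjusted p under 0.05). All 9 members had a negative difference there, with a median of −0.59 against −0.52 over all genes.

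The members with the smallest p for TET1 CD against TET1 dCD were *KCNQ1OT1* (−1.16 ± 0.24, limma adjusted p = 0.0636) and *MEST* (−1.28 ± 0.47, adjusted p = 0.119). *MEST* had 3 and 0 peaks in TET1 CD −DSB, 0 and 0 in TET1 CD +DSB, 3, 0 and 0 in TET1 dCD −DSB, and 9 and 6 in TET1 dCD +DSB. The high counts at both genes were thus those of TET1 dCD +DSB, whose lists were the longest of the 24, with 503609 and 448059 peaks. Both genes were called without TET1 CD −DSB replicate 1 (adjusted p = 0.0304 and 0.0276), when 11.8% of all genes were called, and without TET1 dCD −DSB replicate 3 (adjusted p = 0.0182 and 0.0487), when 21.6% were. Among the 100000 strongest peaks of each list the difference was 0 at both.

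**Figure D5:**
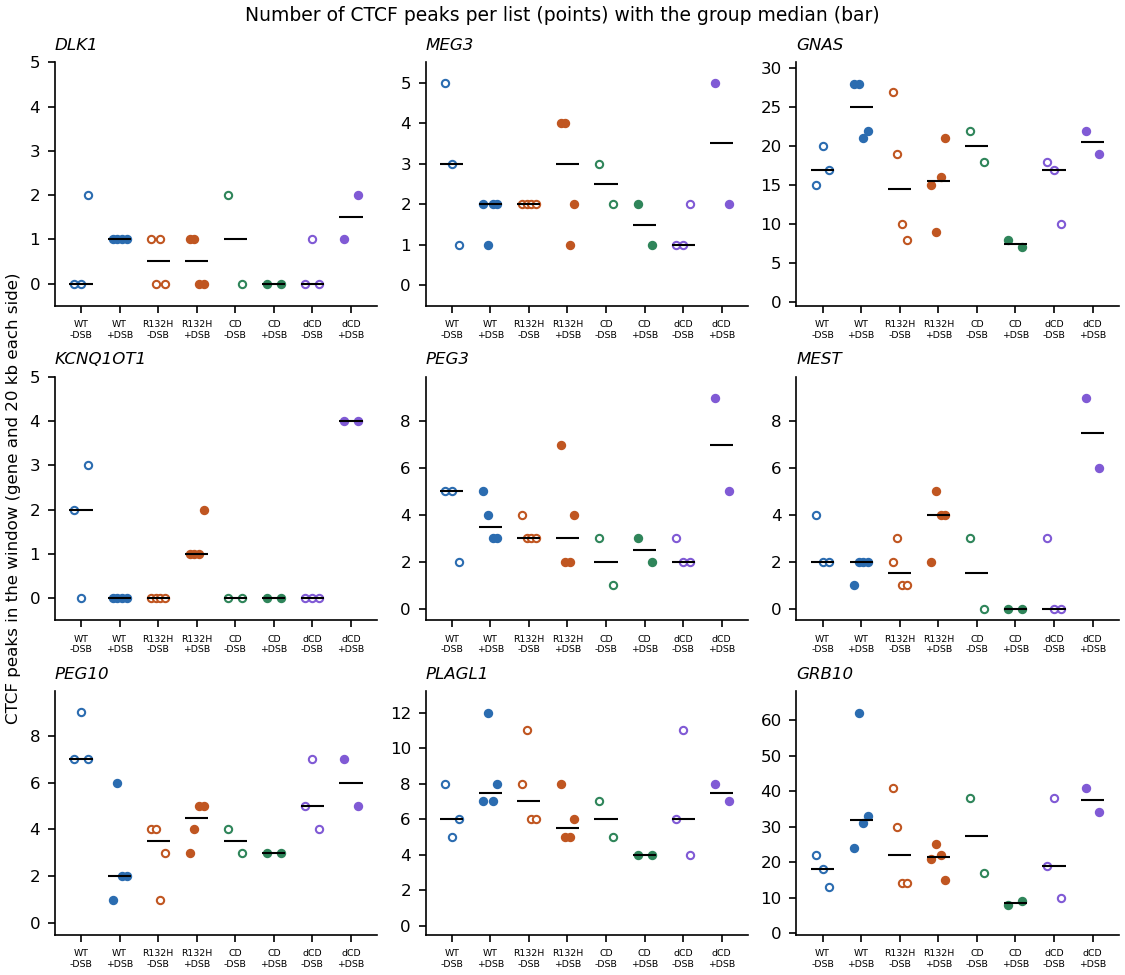
The y axis is the number of peaks in the window of each gene (the gene and 20 kb on each side) and the x axis the 8 groups; points are lists, open without and filled with DSB, and bars are group medians. The TET1 dCD +DSB lists stand highest at *KCNQ1OT1* (4 and 4 peaks) and at *MEST* (9 and 6 peaks), and *GRB10* reaches 62 peaks in an IDH1WT +DSB list.

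Of 38 other imprinted genes, among them *H19*, *IGF2*, *CDKN1C*, *SNRPN* and *IGF2R*, 35 had a recurrent site in their window and 27 a site found in every list, while *NDN*, *MEG9* and *DIO3* had no recurrent site. Some of these genes, such as *SGCE*, *ZIM2* and *GNAS-AS1*, share windows with members, so the same sites count for both. None of the 38 was called by limma for the number of peaks. Their median difference was −0.04 for IDH1R132H against IDH1WT and −0.51 for TET1 CD against TET1 dCD. Their median density was 5.41 peaks per 100 kb of window, against 3.96 for the 9 members and 6.66 over all genes. Among the members, density ran from 0 at *KCNQ1OT1* and 1.64 at *MEG3* to 9.04 at *GRB10* and 16.2 at *GNAS*.

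The summed number of peaks in the 9 windows ranged from 26 in a TET1 CD +DSB list to 116 in an IDH1WT +DSB list. Outside the windows, the numbers of peaks that followed this sum most closely over the 24 lists were those of *LINC02015* (Spearman's rho 0.954), ENSG00000289738 (0.953) and *DPYSL3* (0.95). The sum also followed the total number of peaks in the list (rho 0.694), which all these counts share, and these values are a description only.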

How the data were processed

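CTCF ChIP-seq of DIvA cells was analysed from 24 peak lists. The authors aligned reads to GRCh38 with Bowtie2 and called peaks per sample with MACS2 against input. The fold (ratio) that the authors deposited is, by its values, summit reads plus 1 over background plus 1, with 1 background per list. The −log10 p, −log10 q and score columns that the authors deposited come from the same caller, and p and score were not used. No value is normalized between lists, so ranks within lists were compared.

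Lists whose counts differed by less than sampling noise were averaged. A group's sole pair was joined only at a variance ratio under 0.9, a limit chosen after seeing the data. The TET1 CD −DSB lists thus stayed separate. limma 3.58.1 (R 4.3.3) tested −log2 rank and log2(peaks + 1) with Benjamini-Hochberg adjustment, and Fisher's exact test compared presence. These tests were also run on simulated data with planted changes and independent samples. The interaction and differences in depth between lists were not simulated. The motif matrix came from the 5000 strongest sites outside the windows, of which 4195 entered it.

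The members and lists were chosen with earlier results of these data known. The rule named, per gene, the best ranked recurrent site, the one nearest a transcript start, called sites and the 2 smallest p per comparison. Further sites were named after their values were seen. Alternatives covered the groups, the joining of lists, the replicate block, single samples, peak filters, flank and pseudocount. IDH1WT −DSB replicate 1 and the 4C-seq samples, 12 of them without a clear group, were not analysed here.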

Additional observations from a re-analysis of the deposited data

Results flagged for a closer look

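At 8 member sites the effect of DSB differed between IDH1R132H and IDH1WT with groups by labels, by a test of the difference itself (the interaction in limma on −log2 rank, adjusted over all 30461 sites, of which 49.9% were called). The effect in IDH1R132H minus that in IDH1WT was −2.92 at PLAGL1 site 4, −2.77 at PEG10 site 1, −2.11 at GNAS site 3, −1.86 at PEG3 site 2, −1.84 at GRB10 site 3, −1.55 at GRB10 site 4, −1.33 at MEG3 site 1 and −0.929 at PLAGL1 site 2, with adjusted p from 1.8e-06 at PEG10 site 1 to 0.0368 at GRB10 site 4. With groups by run names none of the 8 was called, and the values ran from −0.985 at GRB10 site 4 to 0.235 at PLAGL1 site 4.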

How the results depend on the processing

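With groups by run names the differences of IDH1R132H against IDH1WT without DSB reversed to −1.08 at GNAS site 3, −1.33 at PEG10 site 1 and −0.796 at GRB10 site 3, that of DSB in IDH1R132H reversed to 0.154 at GNAS site 3, and that in the number of peaks at *KCNQ1OT1* between genotypes reversed to 1.19. By run names the sites called numbered 0 for DSB in IDH1WT, 0 for DSB in IDH1R132H and 8 for TET1 CD against TET1 dCD, and 6410 genes were called between genotypes. With a −log10 q of at least 10, 721 genes were called between genotypes and 2976 between the TET1 proteins, where the *GRB10* difference reversed to 0.74 (limma adjusted p = 0.046), and among the 100000 strongest peaks 47 and 400 genes were called. For the TET1 proteins, quantile-normalized folds called 60 sites, and counting the TET1 CD −DSB lists as 1 sample left 0 sites and 1 gene. With every list as its own sample, the called sites numbered 10176 and 17341 for genotype without and with DSB, 16678 and 10603 for DSB in IDH1WT and IDH1R132H and 6274 for the TET1 proteins, and the called genes 8 and 19092. Of the 11 member sites, 6, 8, 7, 6 and 1 were then called in the same order, and *KCNQ1OT1* (limma adjusted p = 0.00654) and *MEST* (adjusted p = 0.02) were called for the TET1 proteins. The cause was not tested, except that run names exchange groups and unjoined lists raise the number of samples.

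With a replicate block on unjoined lists these counts were 11204, 17976, 17269, 11666 and 8542 sites, and 21 and 24257 genes, with 6, 8, 7, 7 and 3 member sites, and *KCNQ1OT1*, *MEST*, *PEG3* and *GRB10* called for the TET1 proteins (limma adjusted p = 0.0027 to 0.0283). Over 65 pairs of same-numbered lists the deviations correlated at −0.122 to 0.437 (median 0.0186, 21 over 0.1). Over 184 pairs of lists with different numbers they correlated at −0.584 to 0.434 (median −0.00476, 25 over 0.1). Whether same-numbered lists share a batch was not tested. Leaving out 1 sample at a time gave 809 to 4811 and 5178 to 9749 sites for genotype without and with DSB, 3323 to 8699 and 898 to 4939 for DSB in IDH1WT and IDH1R132H, and 0 to 3646 sites and 0 to 13340 genes for the TET1 proteins. The lowest counts came without IDH1R132H −DSB replicate 1 (809 and 898), IDH1WT −DSB replicate 2 (1247 and 3323) and the joined IDH1WT +DSB replicates 1, 3 and 4 (5178 and 5145). Counts also fell by over 1.5 times without the joined IDH1R132H −DSB replicates 2 to 4 (3415 and 3363), IDH1R132H +DSB replicate 1 (3726) and replicate 2 (3670). For the TET1 proteins the called sites were 0 without either TET1 CD −DSB list, 597 and 532 without TET1 dCD +DSB replicates 1 and 2 and 3646 without TET1 dCD −DSB replicate 3, and 7288 genes were called without TET1 CD −DSB replicate 1. Occupancy called 0 sites under every alternative run. In the main setting the smallest p that Fisher's exact test could give was 0.00794 over 355140 sites, so adjustment left little room for a call.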
